A study of Homo sapiens with 3 samples.

Results

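The alpha-arrestin genes TXNIP, ARRDC1, ARRDC2, ARRDC3 and ARRDC4 were followed in LNCaP, an androgen-responsive line of human prostate cancer cells, treated with n-butylidenephthalide (BP), a compound of Angelica sinensis. All 5 genes were found by their symbol among the 19208 genes with a symbol of their own on the arrays, each with 1 transcript cluster. The genes were chosen by their measured differences from control cells, since TXNIP was lower at both times while ARRDC3 was higher early, and these differences are therefore given as a description. By the methods, total RNA was amplified and the resulting cRNA was hybridized to 3 Human Gene ST arrays of Affymetrix. Control cells, cells given 70 µg/ml BP for 3 h and cells given the same dose for 24 h had 1 array each. All 3 groups are the same cell line, grown attached in medium with serum. The title of the series speaks of DMSO, but the label of the control array states neither a treatment nor a harvest time. No array had a replicate. No test between conditions was therefore possible, the precision of each value is limited by the number of arrays, and "rose" and "fell" are used below only for differences of at least 2-fold.

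Alpha-arrestins are adaptor proteins with the fold of the arrestins. Most carry short proline and tyrosine motifs that bind the WW domains of ubiquitin ligases of the NEDD4 family, and in this way they bring membrane proteins to ubiquitination and endocytosis. TXNIP, the thioredoxin-interacting protein, also binds and inhibits thioredoxin and restricts glucose uptake by promoting the internalization of glucose transporters. Its gene was first found as a transcript induced by vitamin D in human leukemia cells, and in many cell types it is induced by glucose through the transcription factor MondoA (gene MLXIP) and its partner MLX.

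The promoter of TXNIP holds a carbohydrate response element, the kind of site through which MondoA and MLX act. To show it, the promoters of 3 of the genes are printed 5′ to 3′ from RefSeq sequences of build GRCh38.p14, each with 250 bases before and 50 bases after the start site. These are TXNIP and ARRDC4, both known in cultured mammalian cells as glucose-induced targets of MondoA, and ARRDC3, the gene that moved the other way. Capitals mark the carbohydrate response element (searched as 2 copies of CACGNG with 5 bases between them), the E-box CACGTG and the CCAAT box bound by NF-Y, all searched on both strands, so that ATTGG is a CCAAT box on the other strand. The TXNIP promoter lies at chr1:145996530-145996829 on the minus strand, the ARRDC4 promoter at chr15:97960453-97960752 on the plus strand and the ARRDC3 promoter at chr5:91383268-91383567 on the minus strand.
TXNIP: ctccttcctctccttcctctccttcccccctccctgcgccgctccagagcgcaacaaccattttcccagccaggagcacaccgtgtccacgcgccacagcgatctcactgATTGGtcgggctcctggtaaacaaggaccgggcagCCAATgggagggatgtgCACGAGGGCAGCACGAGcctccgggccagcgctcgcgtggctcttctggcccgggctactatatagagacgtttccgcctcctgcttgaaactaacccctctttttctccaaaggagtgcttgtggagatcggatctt
ARRDC4: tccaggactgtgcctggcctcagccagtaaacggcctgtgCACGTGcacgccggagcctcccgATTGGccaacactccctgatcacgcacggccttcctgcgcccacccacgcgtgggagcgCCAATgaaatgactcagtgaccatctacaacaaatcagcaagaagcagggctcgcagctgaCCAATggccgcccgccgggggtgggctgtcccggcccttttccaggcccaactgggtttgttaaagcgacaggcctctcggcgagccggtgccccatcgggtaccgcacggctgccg
ARRDC3: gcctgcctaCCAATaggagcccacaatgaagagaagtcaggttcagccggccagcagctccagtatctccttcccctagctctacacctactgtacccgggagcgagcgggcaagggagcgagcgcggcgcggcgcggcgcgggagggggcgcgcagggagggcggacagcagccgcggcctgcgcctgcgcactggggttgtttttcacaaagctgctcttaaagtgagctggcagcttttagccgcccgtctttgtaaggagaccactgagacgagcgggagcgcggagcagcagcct
All 5 genes were matched in this table, which gives a 2nd start for TXNIP, ARRDC2 and ARRDC3 that is not printed. The carbohydrate response form was found in the TXNIP promoter as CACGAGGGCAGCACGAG, beginning 88 bases before the start site, and in no other promoter of the 5 genes. It occurs in 0.057% of the 35116 promoters of this length. The TXNIP promoter also holds 2 CCAAT boxes, which begin 140 and 105 bases before the start site, just upstream of that element. The ARRDC4 promoter holds 1 E-box, a motif found in 7.26% of promoters, and 3 CCAAT boxes. The ARRDC3 promoter holds 1 CCAAT box, a motif found in 34.6% of promoters, and neither of the other motifs. A match describes these letters and does not show that a factor bound there.

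The deposited values are log2 expression per transcript cluster, with medians over all 33297 clusters of 5.48 on the control array, 5.46 on the 3 h array and 5.48 on the 24 h array. The middle 95% of genes differed from control cells by -0.35 to 0.48 at 3 h and by -0.86 to 0.81 at 24 h. On the 3 h array 41.1% of genes repeated the control value exactly, and on the 24 h array 46.7% did. The source of these repeats is not known, so an exact control value is not read below as a measured lack of change. A median difference of 0 can rest on such repeats. Of 6 measured markers of LNCaP cells, all 6 lay above the median of each array, and 4 of them were at least 2-fold lower at 24 h. Of the markers of other cells, 3 of 5 for other prostate cancer lines, 1 of 3 for fibroblasts, 0 of 3 for endothelial cells and 0 of 3 for blood cells lay above the median on each array, and none was past 2-fold.

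TXNIP fell at both times after BP. It is represented by transcript cluster 7904726 in cytoband 1q21.1, and it gave a log2 value of 10.03 on the control array, 8.93 on the 3 h array and 8.76 on the 24 h array. Both treated arrays lay below the control array, and the 3 h and 24 h arrays lay close to each other. This made TXNIP 2.15-fold lower at 3 h (log2 difference -1.10) and 2.42-fold lower at 24 h (-1.27). The expression at 3 h was thus 46.5% of that in control cells, and that at 24 h was 41.3%. Among 19208 genes only 3 had a lower difference at 3 h, whereas at 24 h there were 280 such genes. Between 3 h and 24 h the value of TXNIP changed by -0.17, against -1.10 in the first 3 h. Most of the difference seen at 24 h was therefore already present at 3 h. In RNA of whole cultures, fewer cells with the transcript and less of it per cell cannot be told apart.

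ARRDC3 rose early. It encodes an adaptor known in human cells for the degradation of integrin beta-4. ARRDC3 is represented by transcript cluster 8113073 in cytoband 5q14.3, and it gave a log2 value of 8.72 on the control array, 10.75 on the 3 h array and 9.65 on the 24 h array. The 3 h array was the highest, and the 24 h array lay between it and the control array. The difference from control cells was 2.02 at 3 h, or 4.07-fold higher, which only 6 genes exceeded. At 24 h it was 0.93, or 1.90-fold higher, which is within 2-fold, and 366 genes had a higher difference. From 3 h to 24 h the value changed by -1.10, so that ARRDC3 was 2.14-fold lower at 24 h than at 3 h.

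ARRDC4, like TXNIP a glucose-induced gene, showed a small early difference in the direction of TXNIP. Its protein also lowers glucose uptake in cultured cells. The gene is represented by transcript cluster 7986350 in cytoband 15q26.3, and it gave a log2 value of 6.60 on the control array, 6.09 on the 3 h array and 6.47 on the 24 h array. The 3 h array was the lowest, and the 24 h array lay close to the control array. The difference was -0.52 at 3 h, or 1.43-fold lower, within 2-fold but below that of all except 131 genes. The 3 h value lies close to the median over genes of that array, 6.05, and was not shown to be above background. At 24 h it was -0.14, well inside the spread of all genes.

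ARRDC1 and ARRDC2 had values at or close to the control value on these arrays. ARRDC1, an adaptor that recruits TSG101 to the plasma membrane for the budding of small vesicles, is represented by transcript cluster 8159692 in cytoband 9q34.3. Its log2 value was 7.41 in all 3 conditions. The value at 24 h repeated that of control cells exactly, as it did for 46.7% of genes. ARRDC2 is represented by transcript cluster 8026915 in cytoband 19p13.11, with log2 values of 6.05 on the control array, 6.01 on the 3 h array and 6.02 on the 24 h array. These values of ARRDC2 lie close to the medians over genes of the same arrays (6.05, 6.05 and 6.03) and were not shown to be above background. The differences from control cells lay between -0.05 and 0.01 for both genes at both times. A change smaller than the unknown error of a single array could not be detected.

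**Figure D1:**
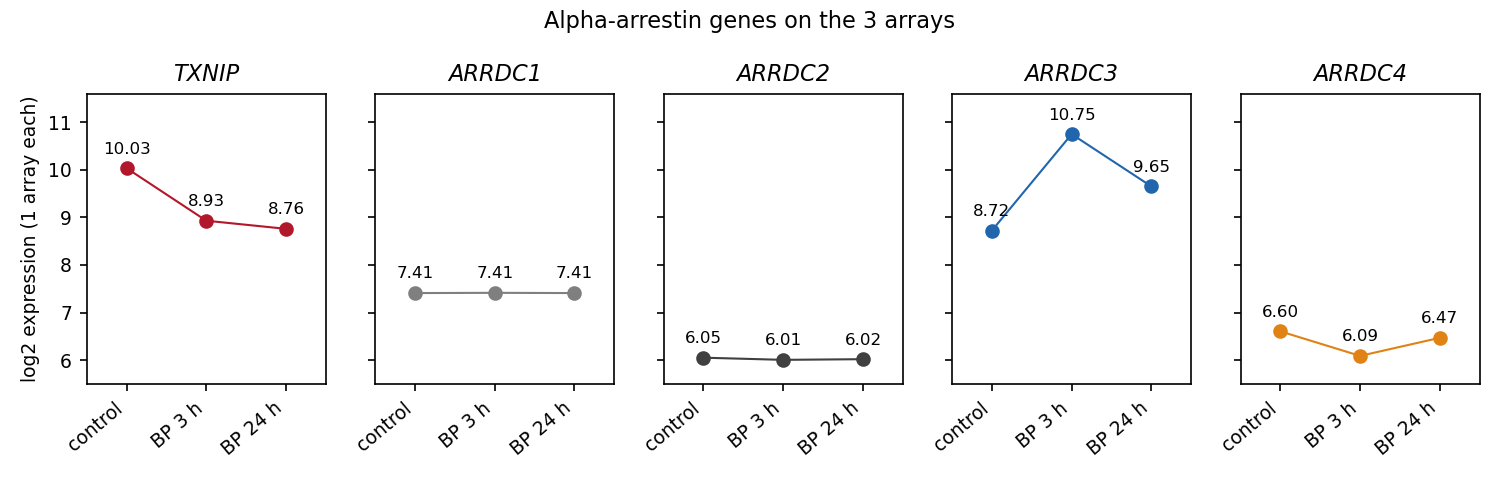
Log2 expression of the 5 alpha-arrestin genes (vertical axis, 1 panel per gene) on the control, BP 3 h and BP 24 h arrays (horizontal axis, equally spaced), with 1 point for each array and no error bars because each condition had 1 array. TXNIP lies at 10.03 in control cells and below 9 on both treated arrays, ARRDC3 peaks at 10.75 at 3 h, and ARRDC1 and ARRDC2 are level; heights are not comparable between genes.

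At 3 h, 1 of 5 was at least 2-fold higher (ARRDC3), against 0.344% of all genes, and 1 of 5 was at least 2-fold lower (TXNIP), against 0.0469%, or 2 of 5 against 0.39% in either direction. At 24 h, 0 of 5 were higher, against 1.53% of all genes, and 1 of 5 was lower (TXNIP), against 2.11%, or 1 of 5 against 3.64% in either direction. From 3 h to 24 h, 0 of 5 were at least 2-fold higher, against 0.807% of all genes, and 1 of 5 was lower (ARRDC3), against 2.4%, or 1 of 5 against 3.21% in either direction. Since these comparisons chose the genes, nothing is read from these counts. The median difference of the 5 genes was -0.05 at 3 h and -0.03 at 24 h, and that of all genes was 0 at both times. The members spanned 3.13 on the log2 scale at 3 h and 2.20 at 24 h. At both times ARRDC3 marked the upper and TXNIP the lower end. ARRDC4 lay 0.59 above TXNIP at 3 h and 1.14 above it at 24 h, since the difference of ARRDC4 had become small while that of TXNIP had not. The comparisons at 3 h and 24 h share the control array, so an error of that array would enter both.

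**Figure D2:**
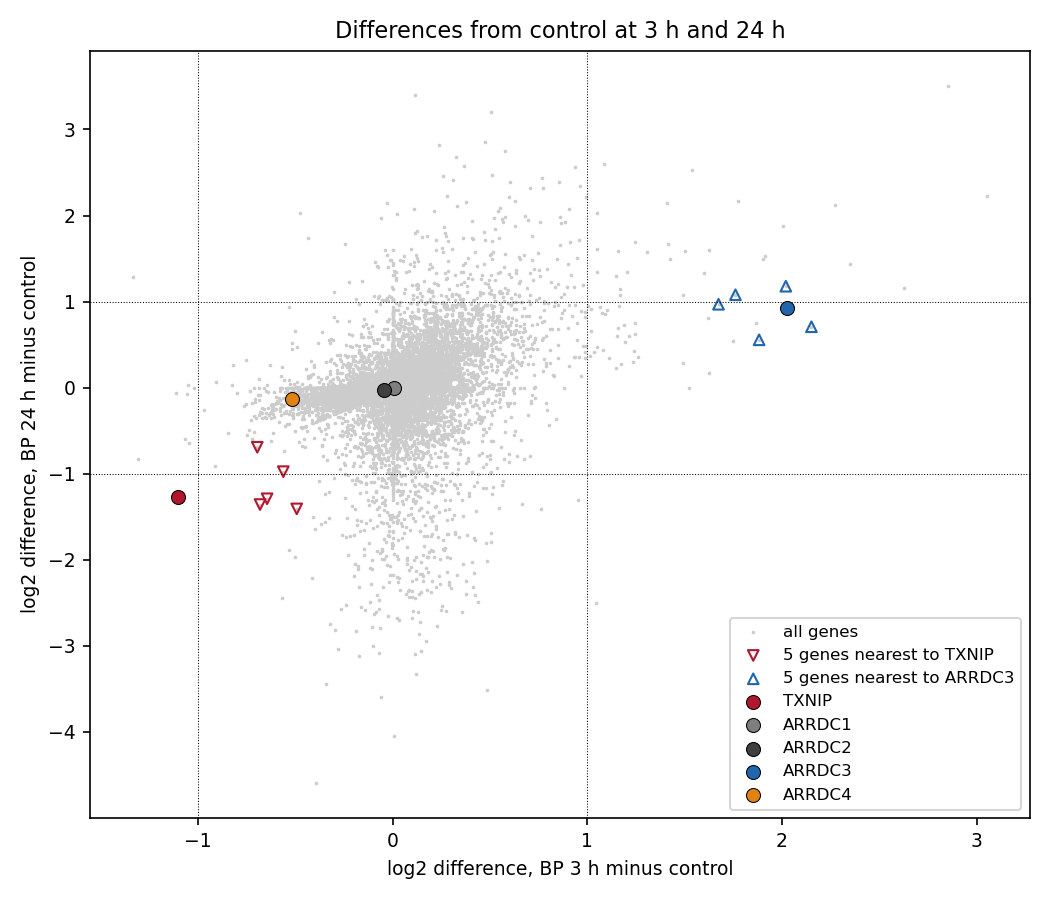
Log2 difference from control cells at 3 h (horizontal axis) and 24 h (vertical axis) for all 19208 genes (grey points), the 5 alpha-arrestin genes (filled circles) and the 5 genes nearest to TXNIP and to ARRDC3 (open triangles), with dotted lines at 2-fold. TXNIP lies past both dotted lines at the lower left, ARRDC3 lies past 2-fold at 3 h with 0.93 at 24 h, and ARRDC1 and ARRDC2 lie at the centre.

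Few of the genes compared lay close to TXNIP. Likeness was measured as the distance between the pairs of differences from control cells at 3 h and 24 h, over the 3 arrays. The highest value of each gene over the arrays was taken as its level. Genes were left out unless this level lay above the median level of all genes. Of the 9603 genes compared, 2 lay within 0.5 of TXNIP. The nearest was TUBB2C, a beta-tubulin gene, with differences of -0.68 at 3 h and -1.36 at 24 h and a distance of 0.43. NT5DC2 followed with -0.64 and -1.29. PDK3, a kinase that inhibits pyruvate dehydrogenase, had -0.56 and -0.98, and LBR, the lamin B receptor, had -0.49 and -1.41. DUSP7, a phosphatase of MAP kinases, had -0.70 and -0.69. All 5 were less than 2-fold below control cells at 3 h, whereas TXNIP was past 2-fold. Only 9 of all genes were at least 2-fold lower at 3 h, and 4 with the genes under the median level left out. TXNIP was chosen by these same differences, so the small number of near genes follows in part from the choice and was not tested.

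Around ARRDC3, 6 genes lay within a distance of 0.5, on the side where more genes (66 of all genes) were at least 2-fold different at 3 h. The nearest was MT1X, a metallothionein, with differences of 2.15 at 3 h and 0.71 at 24 h and a distance of 0.25. Metallothionein transcripts are similar in sequence, so the arrays may not tell them apart. JUN, a subunit of the transcription factor AP-1, had 2.02 and 1.18, at the same distance. ID3, an inhibitor of differentiation, had 1.76 and 1.08. SMAD7, a feedback inhibitor of TGF-beta signaling, had 1.67 and 0.97. SLC30A1, a zinc exporter, had 1.88 and 0.56. These genes were chosen for their likeness to ARRDC3, so the shared peak at 3 h follows from the choice, and the likeness was not tested.

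**Figure D3:**
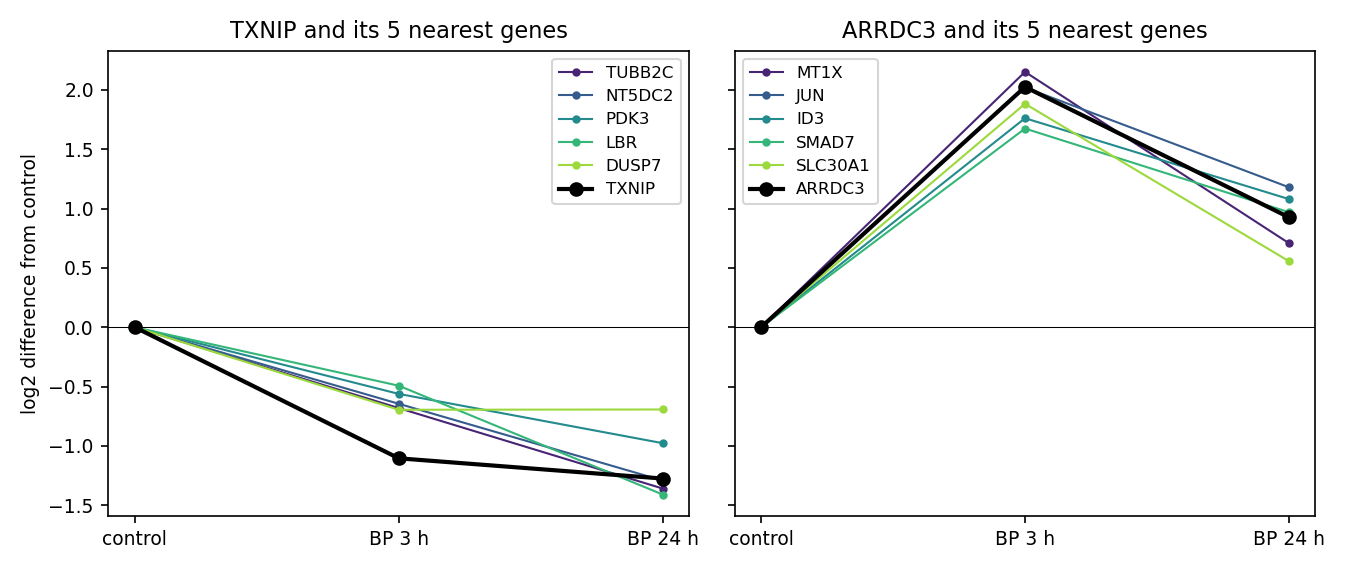
Log2 difference from control cells (vertical axis) on the control, BP 3 h and BP 24 h arrays (horizontal axis, equally spaced) for TXNIP and its 5 nearest genes (left) and for ARRDC3 and its 5 nearest genes (right), with 1 point per array. At 3 h TXNIP (-1.10) lies below all 5 of its nearest genes, while ARRDC3 (2.02) lies among its own.

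Genes of the proteins with which alpha-arrestins work were examined by lists drawn up from general knowledge. Their counts past 2-fold stand against 0.344% of all genes higher and 0.0469% lower at 3 h, and 1.53% higher and 2.11% lower at 24 h. Among 9 ligases of the NEDD4 family, 1 rose at 24 h (1.53% of all genes did) and 8 lay within 2-fold, with a median difference of 0.05. The gene that rose was NEDD4 itself, whose product binds the motifs of TXNIP and of the ARRDC proteins. NEDD4 gave a log2 value of 4.94 on the control array, 5.49 on the 3 h array and 7.03 on the 24 h array. The control and 3 h values lie below the medians over genes of those arrays, 6.05 on each, and were not shown to be above background. The log2 difference of 2.09 at 24 h (4.26-fold) and that of 0.55 at 3 h carry this limit. The related ligases ITCH, which is known to ubiquitinate TXNIP, and SMURF1 differed by 0.41 and 0.48 at 24 h. At 3 h none of the 9 was past 2-fold.

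The thioredoxin system, the redox partner of TXNIP, held 11 measured genes with a median difference of 0.03 at 3 h and 0 at 24 h. Of these, 1 rose at 24 h and 10 lay within 2-fold. SRXN1, which encodes sulfiredoxin, the enzyme that repairs overoxidized peroxiredoxins, was at 8.44 on the control array, 8.40 on the 3 h array and 10.04 on the 24 h array. At 24 h SRXN1 was thus 3.03-fold higher. A 2nd transcript cluster of SRXN1 had the same value of 5.11 on all 3 arrays, and with the clusters averaged 0 genes of the list were past 2-fold. TXNRD1, the cytosolic thioredoxin reductase, differed by 0.90 at 24 h, and the peroxiredoxin gene PRDX5 by 0.57. TXN, the gene of thioredoxin, differed by 0.12 at 3 h and 0.01 at 24 h.

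Of 9 transcription factors known to bind or regulate the TXNIP gene, none was past 2-fold at either time. MLXIP, the gene of MondoA, was at 7.85 on the control array, 7.97 on the 3 h array and 8.34 on the 24 h array, a difference of 0.48 at 24 h. NFYB, a subunit of NF-Y, differed by 0.26 at 3 h and -0.59 at 24 h. MLX differed by -0.14 at 3 h and had the control value at 24 h. Among 12 genes known to respond to glucose in some tissue through MondoA or its relative ChREBP, 2 fell at 24 h and 10 lay within 2-fold, with a median difference of 0. Both that fell encode enzymes of fatty acid synthesis, FASN with a difference of -1.42 and ACACA with -1.17, and both are also regulated by sterol response factors. At 3 h the differences of these genes were 0.13 and 0.20. ELOVL6, a fatty acid elongase, and LDHA, which makes lactate, differed by -0.90 and -0.93 at 24 h. In the other direction, the hexokinase gene HK2 differed by 0.71 at 24 h.

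Among 11 reported cargo proteins and partners of alpha-arrestins, 1 rose, at both times, and 10 lay within 2-fold. It was DDIT4, an inhibitor of mTORC1 signaling whose protein forms a complex with TXNIP, which was at 7.88 on the control array, 9.31 on the 3 h array and 9.37 on the 24 h array. DDIT4 was thus higher by 2.68-fold at 3 h and by 2.81-fold at 24 h. TSG101, the partner of ARRDC1, differed by 0.46 at 24 h. ITGB4, which encodes the cargo protein of ARRDC3 named above, had exactly the control value at both times, but that value, 5.16, lies below the median over genes. Of 12 measured glucose transporters of the SLC2A family, 1 fell at 24 h, namely SLC2A12 with a difference of -1.10. SLC2A12 was at 5.58 on the control array, 5.80 on the 3 h array and 4.49 on the 24 h array, below the median over genes on each. With the genes under the median level left out, 0 transporters were past 2-fold. SLC2A1, which encodes GLUT1, the transporter that TXNIP is known to internalize, was at 8.17 on the control array, 8.07 on the 3 h array and 8.72 on the 24 h array, a difference of 0.55 at 24 h. The transporter gene SLC2A3 differed by -0.21 at both times, but its values, 3.63 on the control array and 3.42 on each treated array, lie below the median over genes.

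AMP-activated protein kinase phosphorylates TXNIP and marks it for degradation. None of its 7 subunit genes was past 2-fold, and their median difference was 0.18 at both times. PRKAB2, a beta subunit, was at 6.66 on the control array, 7.04 on the 3 h array and 7.57 on the 24 h array, a difference of 0.91 at 24 h, and PRKAA2 differed by 0.41. ER stress has been linked to TXNIP in pancreatic beta cells, where the stress transducers IRE1 and PERK raise its transcript. Of 6 measured genes of this link, 1 rose at both times, namely DDIT3, which encodes GADD153/CHOP, with differences of 2.85 at 3 h and 3.51 at 24 h. ERN1, the gene of IRE1-α, differed by 0.24 at 3 h and 0.90 at 24 h, and EIF2AK3, the gene of PERK, by 0.39 and 0.52. XBP1, whose transcript IRE1 splices, differed by 0.54 and 0.66. ATF5, a factor that can induce TXNIP in beta cells, repeated the control value exactly at both times. Exact repeats were found for 41.1% of genes at 3 h and 46.7% at 24 h, so no lack of change is read from this. Of 8 measured relatives with an arrestin fold, none was past 2-fold, and the largest differences at 24 h were those of RGP1, 0.47, and of ARRB1, which encodes beta-arrestin 1, -0.46.

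**Figure D4:**
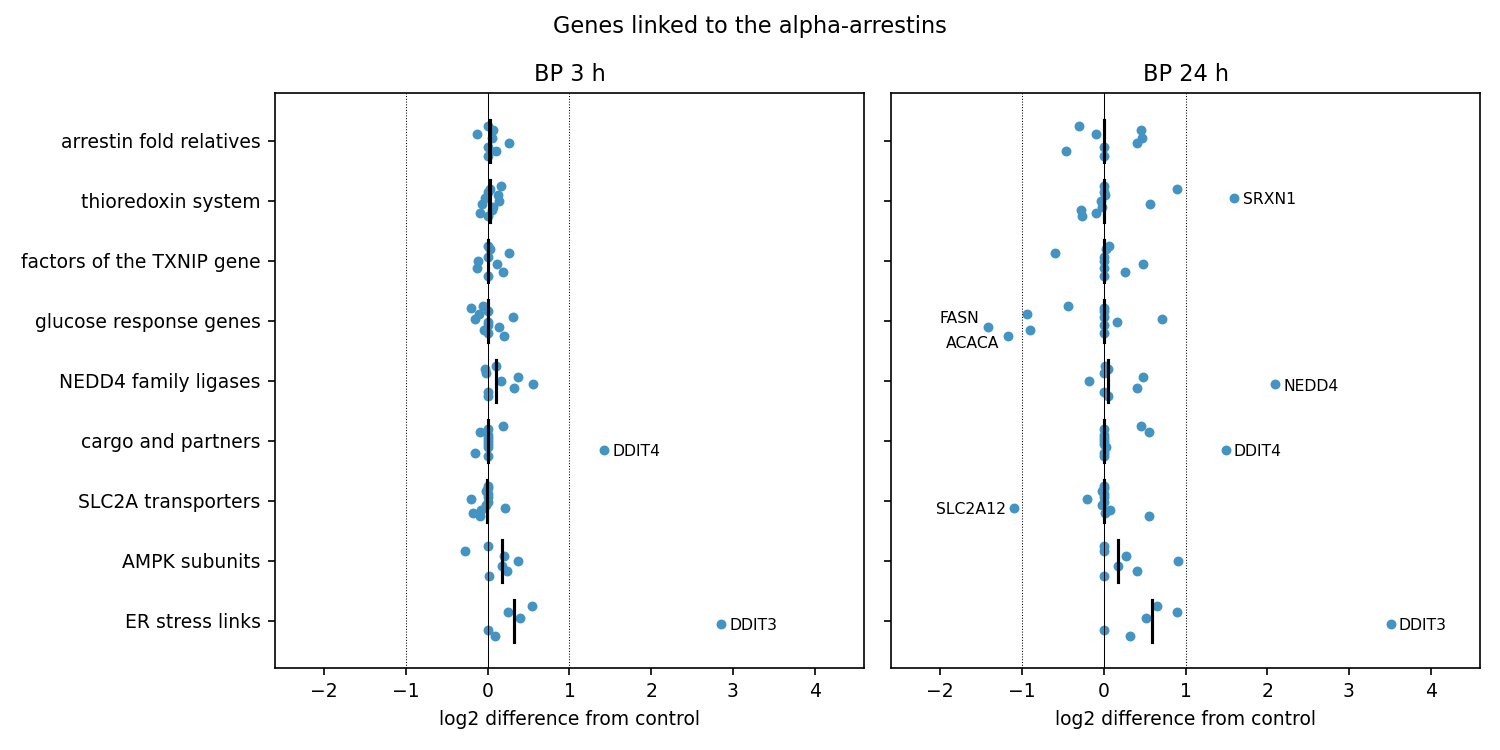
Log2 difference from control cells (horizontal axis) at 3 h (left) and 24 h (right) for the genes of 9 lists (rows), with 1 point per gene, a black bar at the median of each list and dotted lines at 2-fold, past which genes are named. DDIT4 and DDIT3 are past 2-fold at both times, and NEDD4 (2.09), SRXN1 (1.60), FASN (-1.42), ACACA (-1.17) and SLC2A12 (-1.10) only in the 24 h panel.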

How the data were processed

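Amplified RNA of control LNCaP cells and of cells given BP for 3 h and 24 h was hybridized to 1 array each. The analysis started from the deposited log2 values per transcript cluster. Expression Console and RMA are named in the submitters' processing notes, whereas the methods describe MAS5.0 followed by GeneSpring, and which of these made the values is not stated. The tables of the authors' own comparisons hold log2 ratios and folds, which were not used. Gene symbols were taken from the annotation in the table of the 24 h comparison. Its genome build was not given in the sources used here. A cluster counted only if it had exactly 1 symbol, and for 627 genes with several clusters the one with the highest mean was used. Differences of log2 values were taken between arrays, without further normalization, and called at 2-fold.

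The members, lists and rules were chosen with earlier results of these data known. All members were named, and from each list the genes past 2-fold at either time and up to 2 others with the largest difference at 24 h. For TXNIP and ARRDC3 the 5 nearest genes were named, and a few list genes outside this rule (TXN, MLX, ITGB4, ATF5, EIF2AK3, HK2) were chosen after their values were seen. As alternatives, arrays were centred (median or 75th percentile) or quantile normalized, a gene's clusters were averaged, genes under the median level were dropped, or the threshold was set to 1.5-fold or 3-fold. The calculations were tested on simulated data. Calculations ran in Python (version 3.11.15) with pandas 2.3.3 and numpy 2.4.6, and plots in matplotlib 3.10.9.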

Additional observations from a re-analysis of the deposited data

Results flagged for a closer look

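The genes NFYB, ACACA and SLC2A12 lay above control cells at 3 h and below them at 24 h, with both differences larger than 0.20, the SD of the 3 h differences over all genes. NFYB differed by 0.26 at 3 h and -0.59 at 24 h, ACACA by 0.20 and -1.17, and SLC2A12 by 0.21 and -1.10. Centring the arrays on the 75th percentile shifts every 3 h difference by -0.08, and each of these genes then lies below 0.20 at 3 h. With 1 array per condition the difference between the times was not tested. None of the 5 alpha-arrestin genes showed such opposite differences.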

How the results depend on the processing

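The values of the 5 alpha-arrestin genes moved by less than 0.20, the SD of the 3 h differences over all genes, under each scaling. Averaging clusters could not change them, since each of these genes has 1 cluster. TXNIP ranged from -1.19 to -1.09 at 3 h and from -1.31 to -1.27 at 24 h, past 2-fold under each scaling. ARRDC3 ranged from 1.93 to 2.04 at 3 h and from 0.90 to 0.93 at 24 h, and its change from 3 h to 24 h from -1.11 to -1.02. ARRDC4 ranged from -0.60 to -0.50 at 3 h. No paired analysis was possible because each condition had 1 array. For the same reason no array could be left out.

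Over all genes, at 1.5-fold 297 genes were higher and 77 lower at 3 h, 862 and 776 at 24 h, and 470 and 983 at 24 h against 3 h. At 3-fold these counts were 21 and 0, 88 and 191, and 34 and 212. Among genes above the median level 4 were at least 2-fold lower at 3 h, against 9 among all genes. With that filter the median difference at 24 h was 0.20 for the relatives with an arrestin fold and -0.67 for the glucose response genes, and 0 SLC2A transporters were past 2-fold at 24 h. With the clusters averaged, 0 genes of the thioredoxin system were past 2-fold at 24 h, since the clusters of SRXN1 differ. At 1.5-fold and 24 h, the genes past the threshold were 2 of the thioredoxin system, 1 of the factors of the TXNIP gene, 5 of the glucose response genes, 1 of the AMPK subunits and 3 of the ER stress links. At 3-fold, 0 were past it among the glucose response genes and the SLC2A transporters at 24 h and among cargo and partners at 3 h and at 24 h.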

Other observations

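The genes that lie beside the alpha-arrestin genes on their chromosomes were also compared. For each of the 5 genes the 2 nearest measured protein-coding genes on either side were taken, in the order given by RefSeq, which made 20 genes. At 3 h their differences from control cells lay between -0.41 and 0.37, so none of them was past 2-fold, against 0.39% of all genes. Beside TXNIP, PRKAB2 differed by 0.37 at 3 h and by 0.91 at 24 h, and POLR3GL by 0.15 at 3 h and 0 at 24 h. ANKRD34A (5.03) and HFE2 (4.70) had exactly the control value at both times, but these values lie below the median over all clusters. Beside ARRDC3, FAM172A differed by -0.41 at 3 h, the lowest of the 20, and by 0.16 at 24 h, and LYSMD3 by 0.03 and 0.50. GPR98 differed by 0.10 at both times, and NR2F1 by -0.11 and -0.05. At 24 h 1 of the 20 was past 2-fold, against 3.64% of all genes, namely IGF1R beside ARRDC4, which encodes the receptor of insulin-like growth factor 1. It was at 8.25 on the control array, 8.18 on the 3 h array and 6.33 on the 24 h array, a difference of -1.92. These genes were examined after the values of the alpha-arrestins were known.

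The genes nearest to ARRDC3 included MT1X and SLC30A1, known targets of the zinc-responsive factor MTF1, and JUN. For this reason the promoters were also searched, on both strands, for the metal response core in its forms TGCGCNC and TGCACNC. They were also searched for TGANTCA, a loose form of the AP-1 site that allows any middle base. The promoter printed for ARRDC3 holds 2 matches to TGCGCNC, which begin 101 and 63 bases before the start site and of which the nearer reads TGCGCAC. The promoter at the 2nd start of ARRDC3 holds none. At least 1 match occurs in 20.0% of all promoters of this length, and the share with 2 was not counted. The promoters printed for TXNIP and ARRDC4 hold 1 match each. TGANTCA was matched in the ARRDC4 promoter as TGACTCA and at 1 start of ARRDC2 as TGATTCA, but in neither promoter of ARRDC3. It was matched in 7.71% of all promoters, whatever the middle base. TGCACNC, found in 12.1% of promoters, was absent from both ARRDC3 promoters. It had 1 match each in the ARRDC4 promoter, in the ARRDC1 promoter and at the 2nd start of TXNIP. With both forms counted, the promoter printed for ARRDC3 holds no more matches than that of ARRDC4.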
